A study of Homo sapiens with 4 samples.

Results

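The mucins of MKN45, an established line of human stomach adenocarcinoma with an epithelial character, were examined at baseline and after treatment with lipopolysaccharide (LPS), the membrane glycolipid of Gram-negative bacteria, here from Helicobacter pylori, which colonises the stomach. The members were all probe sets that the platform annotation gives to 1 of 10 mucin symbols alone (MUC1, MUC2, MUC4, MUC5AC, MUC5B, MUC6, MUC12, MUC13, MUC17 and MUC20). They came to 28 of the 54675 probe sets on the array, and the 10 genes to 10 of 19775 with a probe set of their own. A probe set is a group of short oligonucleotides that together report 1 transcript as a log2 level. There were 2 arrays of untreated cells, which received fresh medium, and 2 arrays of cells given medium with 10 µg/ml LPS, and RNA was taken after 8 h in both groups. All cells were of this 1 line, grown with 10% serum, and only this dose and time were measured. According to the series text the work was done in 2 independent experiments. All p-values below measure the spread between these arrays. The limma fit draws the spread of each probe set toward that of probe sets of like level, so they do not rest on its own arrays alone. The small number of arrays limits the precision.

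Mucins are large proteins whose serine- and threonine-rich repeats carry dense O-linked sugars. Secreted mucins (MUC2, MUC5AC, MUC5B and MUC6) polymerise into the mucus gel, while MUC1, MUC4, MUC12, MUC13, MUC17 and MUC20 sit at the cell surface, where their long extracellular parts form a barrier and their short tails can signal. In the healthy stomach the surface epithelium secretes MUC5AC and the glands secrete MUC6, and H. pylori lives in the gel they form and binds sugars carried by MUC5AC. In RefSeq gene order MUC2, MUC5AC and MUC5B lie side by side on chromosome 11, which also holds MUC6. MUC20 and MUC4 are neighbours on chromosome 3, which also holds MUC13, and on chromosome 7 only the antisense gene MUC12-AS1 lies between MUC12 and MUC17. MUC1 lies on chromosome 1.

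Proximal promoters in the RefSeq table (build GRCh38.p14) matched 6 of the 10 genes, with 7 windows of 250 bases before a transcript start, since MUC1 has a pair of start sites. No window was matched for MUC5AC, MUC5B, MUC6 and MUC20, so the motif counts below leave these genes out. The windows of MUC1 and MUC13 are shown because these were the membrane mucins with the clearest signal in MKN45 cells. Capitals mark matches to the motifs searched on both strands, which were the TATA box (as TATAAA or as TATAAG), the GC box as GGGCGG, the STAT site as TTCNNNGAA, the AP-1 site as TGANTCA and the NF-kB consensus by its name. The MUC1 window is chr1:155192916-155193165 (minus strand) and the MUC13 window is chr3:124934752-124935001 (minus strand), each written 5′ to 3′ as the gene is read.
MUC1: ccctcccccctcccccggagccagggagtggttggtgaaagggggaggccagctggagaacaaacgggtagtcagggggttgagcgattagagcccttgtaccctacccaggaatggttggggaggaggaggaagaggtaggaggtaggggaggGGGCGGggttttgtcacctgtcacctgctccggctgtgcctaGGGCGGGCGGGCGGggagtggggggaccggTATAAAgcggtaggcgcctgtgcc
MUC13: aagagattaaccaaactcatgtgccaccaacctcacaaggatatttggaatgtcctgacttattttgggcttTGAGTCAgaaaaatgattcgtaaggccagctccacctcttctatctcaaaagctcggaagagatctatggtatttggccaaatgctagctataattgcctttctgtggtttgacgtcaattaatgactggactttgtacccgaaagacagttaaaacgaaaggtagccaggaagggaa

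The MUC1 window held 1 TATAAA and 4 GC box matches, 3 of which overlap each other in 1 run, and 66% of its bases were G or C. In contrast, the MUC13 window had 41.6% G or C, no TATA box or GC box of these spellings and 1 AP-1 match. Among all 35114 windows of the table, 10.7% held TATAAA, 42.6% the GC box and 6.57% the AP-1 site. The AP-1 match was also present upstream of MUC2 and MUC17. An NF-kB consensus match was in 0 of the 7 mucin windows, which cover 6 genes since the MUC1 pair overlaps almost fully, against 9.96% of all windows. The same search gave 1 match for CCL20, 2 for CXCL1 and 0 for CXCL8, the genes that passed the threshold below. A match is a run of letters, not a site shown to be used, and its lack here says only that these letters are not in these windows.

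At baseline the probe sets of MUC1 and MUC13 lay high on the array. MUC1, a membrane mucin that is overexpressed in many carcinomas, read 12.30 and 12.46 (log2 level) in untreated cells on 213693_s_at, which was the 98.1 percentile of all probe sets. Its other probe sets averaged 11.70 (207847_s_at) and 9.32 (211695_x_at). MUC13, a membrane mucin of the gastrointestinal surface, averaged 9.25 and 8.86 on its 2 probe sets, the 82.1 and 78.4 percentiles. Olfactory receptor genes, which an epithelial line should lack, gave a rough reference for the level of transcripts that are not made: their 135 probe sets had a median of 6.30, a 95 percentile of 7.81 and a highest value of 10.47. Of the mucins, 8 probe sets exceeded that 95 percentile, namely the 3 of MUC1, the 2 of MUC13 and 3 of the 4 of MUC5AC, and only 2 MUC1 probe sets exceeded the highest olfactory value. Probe sets bind with unequal strength, so these levels do not rank one mucin against another.

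The remaining mucins sat within, or at the edge of, the 5 to 95 percentile range of the olfactory receptors (4.32 to 7.81). MUC5AC, the surface mucin of the stomach, averaged 7.73 to 8.11 across its 4 probe sets, around the upper edge of that range. MUC2, the gel-forming mucin of the intestine, averaged 7.42 on its single probe set, and MUC17 averaged 7.33 and 6.50. MUC6, the gland mucin of the stomach, averaged 6.92 and 5.92, MUC5B 6.75 and 6.57, and MUC12 6.44 and 6.32. The probe sets of MUC4 ran from 4.37 to 7.04 and those of MUC20 from 4.87 to 6.95. A level within this range does not show that a transcript is absent.

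**Figure D1:**
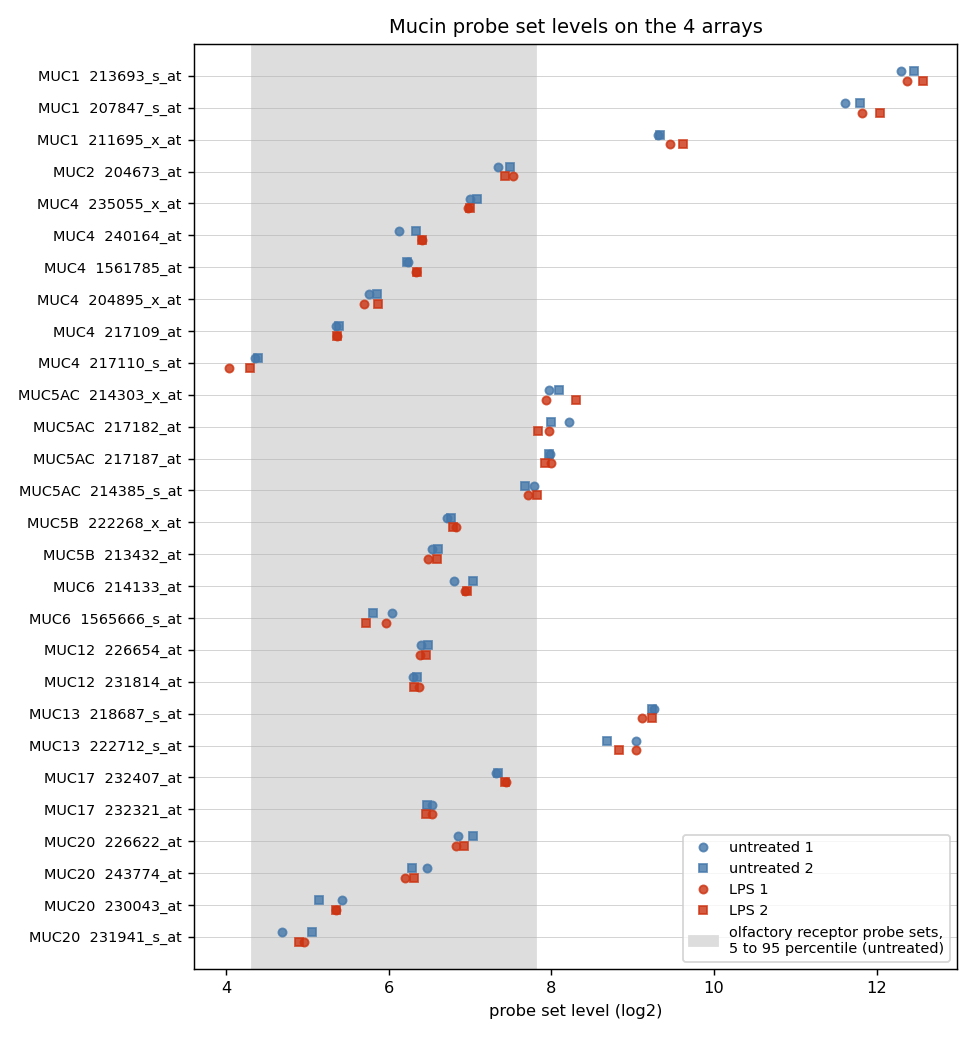
Level of each of the 28 mucin probe sets (log2, x axis) on the 2 untreated (blue) and 2 LPS (red) arrays; circles are replicate 1 and squares replicate 2, and the grey band spans the 5 to 95 percentile of 135 olfactory receptor probe sets in untreated cells (4.32 to 7.81). MUC1 and MUC13 lie to the right of the band and most other mucins inside it, and the colours lie close together in every row.

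Treated and untreated cells were compared to ask whether mucin transcripts respond to the bacterial glycolipid. No mucin probe set passed the threshold of an adjusted p under 0.05 in limma. RNA came from whole cultures, so fewer cells making a mucin and less mucin RNA per cell cannot be told apart. Of the 28, 22 lay above the level filter (the 30 percentile of all probe sets, at 6.06) and 0 were called, where 3 of 38229 probe sets were called over the whole array (0.00785%), those of CCL20, CXCL1 and CXCL8, all higher. With no filter 0 of 28 were called (0.00549% of all 54613 probe sets). At an unadjusted p under 0.05, 2 of the 22 were higher, against 3.69% of all probe sets tested, and 0 were lower, against 8.02%. Both of these 2 belonged to MUC1.

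Differences were small throughout. Over the 28 probe sets they ran from -0.21 to 0.23 (log2, LPS minus untreated) with a median of 0.02, beside a median of 0.0016 over all probe sets, and 15 were higher and 13 lower. The median of the 28 was 0.0068 after quantile normalization, 0.0003 after cyclic loess and 0.0086 after median centring. Over all genes by brightest probe set, which is an unlike set, the medians were 0.0126, 0.0101 and -0.0137. The 22 above the filter had a median of 0.03, beside -0.0039 over all probe sets above it. After quantile normalization these were 0.0253 and 0.0064, after cyclic loess 0.0221 and 0.0030, and after median centring 0.0169 and -0.0182. In 19 of the 28 the groups overlapped. In 6 both LPS arrays lay above both untreated arrays (19.5% of all probe sets did so) and in 3 both lay below (21.1%). None of the 28 differed by 1.5-fold or more, as 0.152% of all probe sets did. In the fit with no filter, the 95% interval of the difference lay within 1.5-fold in either direction for 28 of 28, as it did for 97.9% of all probe sets. The intervals together spanned 0.735-fold to 1.36-fold. For the 20 probe sets under the olfactory 95 percentile this bounds the signal only, since a reading near background need not follow the transcript.

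**Figure D2:**
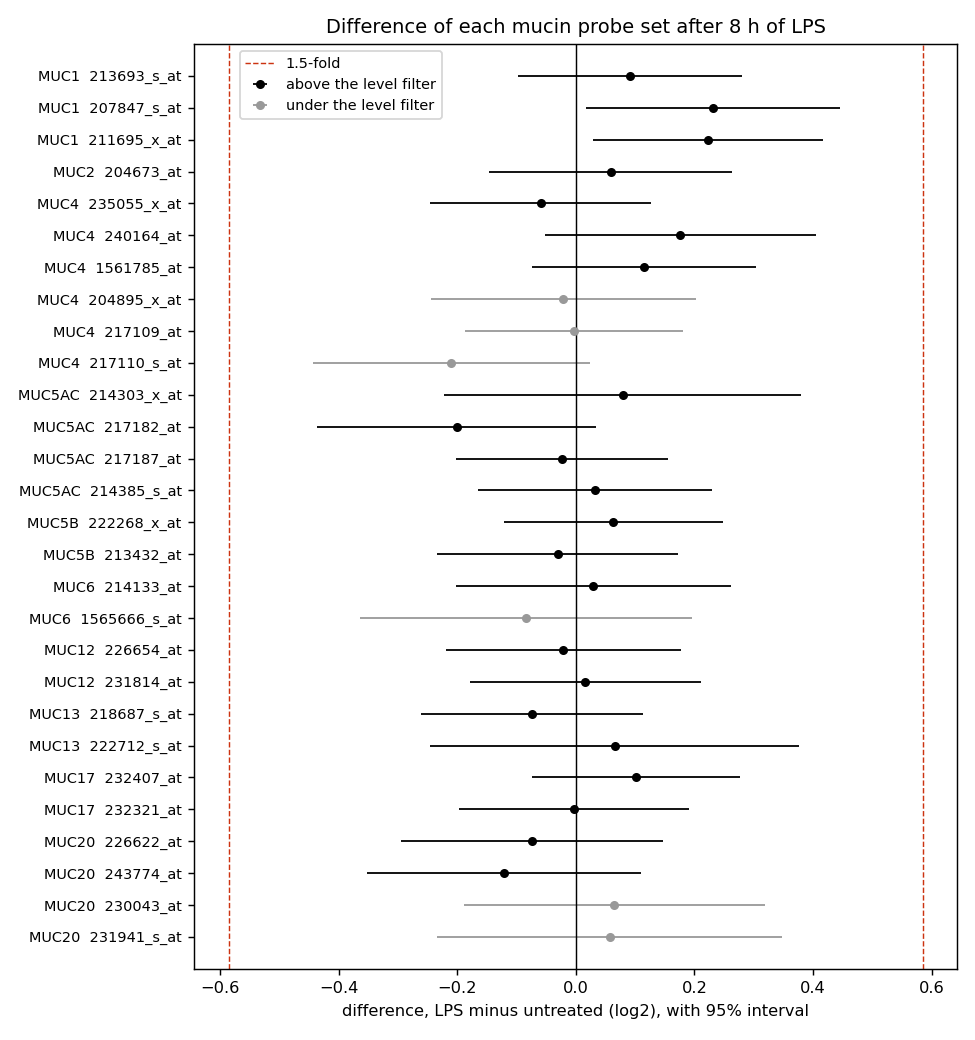
Difference between LPS and untreated cells (log2, x axis) for each mucin probe set with its 95% limma interval; grey points lay under the level filter and take their interval from the fit with no filter, and dashed red lines mark 1.5-fold. Every interval stays between the dashed lines, and only those of MUC1 207847_s_at and 211695_x_at leave out 0.

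MUC1 had the largest differences upward. On 207847_s_at it read 11.61 and 11.79 in untreated cells and 11.82 and 12.04 in LPS-treated cells. Both LPS arrays were above both untreated ones, although the gap between the second untreated and the first LPS array was small beside the spread within each group. Between arrays of the same replicate number it was higher by 0.21 and 0.25, but the labels do not say that a number marks a shared experiment. The difference was 0.23 (1.17-fold, interval 0.02 to 0.44), with an unadjusted p of 0.038 and an adjusted p of 0.401 in limma. On 211695_x_at it read 9.30 and 9.33 against 9.46 and 9.62, again without overlap, and the difference was 0.22 (1.17-fold, interval 0.03 to 0.42, limma adjusted p = 0.38). The brightest MUC1 probe set, 213693_s_at, read 12.30 and 12.46 against 12.37 and 12.57, so the groups overlapped, and it differed by 0.09 (interval -0.10 to 0.28, limma adjusted p = 0.69).

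The 3 MUC1 probe sets were thus higher by 1.07-fold to 1.17-fold on average, and none passed. Leaving out LPS replicate 2 turned the difference of 213693_s_at to -0.0060 and left 0.12 on 207847_s_at and 0.14 on 211695_x_at. Without LPS replicate 1 the same probe sets differed by 0.19, 0.34 and 0.30, without untreated replicate 2 by 0.18, 0.32 and 0.24, and without untreated replicate 1 by 0.0074, 0.14 and 0.21. Transcripts of like level tended the other way: among the 1434 probe sets within 0.5 of the mean level of 207847_s_at, the median difference was -0.04 and the quartiles were -0.10 and 0.02. Quantile normalization of the arrays gave 0.27 for both 207847_s_at and 211695_x_at and 0.12 for 213693_s_at, with limma adjusted p-values of 0.347, 0.295 and 0.58. All 3 carry suffixes (_s_at or _x_at) that mark oligonucleotides shared with further transcripts, as do 13 of the 28 mucin probe sets.

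The other cell-surface mucins differed in no common direction. Without MUC1, 16 probe sets of 5 genes had a median difference of -0.0030, with 7 higher and 9 lower. MUC4, a membrane mucin that can partner with the receptor ERBB2, had 6 probe sets that ran from -0.21 to 0.18. On 240164_at it read 6.13 and 6.34 in untreated and 6.41 and 6.41 in LPS-treated cells, and on 1561785_at 6.23 and 6.22 against 6.33 and 6.35. The LPS arrays were above the untreated ones on both, with differences of 0.18 and 0.11 and limma adjusted p-values of 0.513 and 0.606. Its brightest probe set, 235055_x_at, read 7.00 and 7.08 against 6.97 and 6.99, and 217110_s_at, under the filter, read 4.36 and 4.39 against 4.03 and 4.29. These 2 went the opposite way without overlap, by -0.06 and -0.21, so the probe sets of MUC4 did not give 1 direction. The remaining 2, both under the filter, differed by -0.02 and -0.0032.

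MUC13 read 9.26 and 9.24 in untreated cells and 9.11 and 9.24 in LPS-treated cells on 218687_s_at, and the groups overlapped. The difference was -0.07 (interval -0.26 to 0.11, limma adjusted p = 0.751). On 222712_s_at the untreated arrays were far apart, at 9.04 and 8.69, and enclosed both LPS arrays (9.03 and 8.83), with a difference of 0.07. MUC17, a membrane mucin of the intestinal brush border, read 7.32 and 7.35 against 7.44 and 7.43 on 232407_at. Its replicates lay closer together than those of most mucins and the groups did not overlap, but the difference was 0.10 (interval -0.07 to 0.28, limma adjusted p = 0.628), and 232321_at differed by -0.0027. MUC12, its neighbour on chromosome 7, read 6.40 and 6.48 against 6.38 and 6.46 on 226654_at. The groups overlapped there and on 231814_at, where MUC12 differed by 0.02, against -0.02 on the first.

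MUC20, a surface mucin reported to bind the receptor MET, read 6.86 and 7.04 in untreated cells against 6.83 and 6.92 in LPS-treated cells on 226622_at. The groups overlapped on all 4 of its probe sets, and the differences ran from -0.12 to 0.06 (226622_at -0.07, interval -0.29 to 0.15, limma adjusted p = 0.798). The 2 probe sets that were higher were both under the filter. RefSeq lists a pseudogene copy, MUC20P1, on the same chromosome, and whether these oligonucleotides bind its transcript was not tested.

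Secreted mucins gave 9 probe sets of 4 genes, 5 higher and 4 lower, with a median difference of 0.03. MUC5AC showed the largest of these on 217182_at, which read 8.21 and 8.00 in untreated and 7.97 and 7.84 in LPS-treated cells. Both LPS arrays were lower, by a difference of -0.20 (0.87-fold, interval -0.44 to 0.03, limma adjusted p = 0.478). The other MUC5AC probe sets did not share it. On 214303_x_at the arrays read 7.97 and 8.10 against 7.93 and 8.30, so that the LPS arrays enclosed the untreated ones, with a difference of 0.08, and 217187_at and 214385_s_at differed by -0.02 and 0.03 with overlapping groups.

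MUC2 read 7.35 and 7.49 in untreated cells and 7.53 and 7.43 in LPS-treated cells, with overlapping groups and a difference of 0.06 (interval -0.15 to 0.26, limma adjusted p = 0.833). MUC5B, a gel-forming mucin of airway and salivary glands, read 6.72 and 6.77 against 6.83 and 6.79 on 222268_x_at. The LPS arrays were higher there by 0.06 (limma adjusted p = 0.794), while 213432_at differed by -0.03 with overlapping groups. For MUC6 the arrays read 6.80 and 7.04 against 6.93 and 6.97 on 214133_at, where the LPS arrays fell between the untreated ones. Its difference was 0.03 (interval -0.20 to 0.26, limma adjusted p = 0.938), and 1565666_s_at, under the filter, differed by -0.08. The neighbours on chromosome 11 had no shared direction beyond the spread between arrays.

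Genes that make, modify or release mucins were compared by lists, each gene by its brightest probe set over the 4 arrays. In all 5 lists 0 genes passed the limma threshold over all probe sets tested (0.0185% of genes did). Other mucins and mucin-like genes (11 measured, 6 above the filter) had a median difference of 0.05, beside 0.00054 over all genes. The oviductal glycoprotein OVGP1 was at 0.18 and MUCL3 at -0.15, with its second probe set at 0.09. None of the 6 had an unadjusted p under 0.05. MUC19, a gel-forming mucin named after its value was seen, had the highest difference in that list (0.30), from 5.26 and 5.48 to 5.69 and 5.64, all under the filter.

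Enzymes of mucin-type O-glycosylation (29 measured, 28 above the filter) had a median of -0.05, with 4 lower and 0 higher where unadjusted p-values under 0.05 were counted, against 7.91% of genes lower and 3.72% higher. These 4 were C1GALT1, the core 1 galactosyltransferase (-0.23, limma adjusted p = 0.304), the sialyltransferase ST6GALNAC1 (-0.29, 0.323), the core 2 enzyme GCNT1 (-0.34, 0.385) and the initiating transferase GALNT7 (-0.18, 0.399), the last pair named after their values were seen. Further probe sets of C1GALT1 (-0.05 and -0.23), GCNT1 (-0.19) and GALNT7 (-0.21) were lower too. A4GNT, which caps MUC6 sugars with a residue that acts against H. pylori, read 6.55 and 6.53 against 6.56 and 6.55. FUT2, which builds the fucosylated sugars that the bacterium binds, differed by -0.14 (limma adjusted p = 0.498). Its second probe set differed by -0.10 (limma adjusted p = 0.618), and the groups overlapped on neither. Both were named for their role after their values were seen.

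Mucus companions numbered 25 measured and 22 above the filter, with a median of -0.02. The list holds proteins secreted or folded with mucins, and also regulators and vesicle proteins of the secretory pathway. At an unadjusted p under 0.05, 2 were lower and 1 higher, near the shares over all genes (7.91% lower and 3.72% higher). The lower ones were CREB3L1, a transcription factor of the secretory pathway (-0.35, limma adjusted p = 0.191; second probe set -0.21), and AGR3, a disulfide isomerase relative (-0.19, 0.342). CLCA1, a protein of goblet cell mucus named after its value was seen, was the 1 that was higher (0.21, 0.396). The trefoil factor TFF1, which is secreted with MUC5AC, read 12.60 and 12.62 against 12.62 and 12.67, and AGR2, an isomerase needed to fold mucins, read 14.59 and 14.63 against 14.59 and 14.59. The second AGR2 probe set read 12.34 and 12.24 against 12.11 and 12.19, lower without overlap (-0.14, limma adjusted p = 0.417). TFF1 and AGR2, named for their role after their values were seen, had high readings in all arrays.

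Transcription factors of mucous cells (21 measured, 18 above the filter) had a median of -0.08, with 5 lower and 1 higher at that unadjusted threshold, against 7.91% and 3.72% of all genes. The 5 were FOXA2 (-0.30, limma adjusted p = 0.228), EHF (-0.20, 0.235), GATA6 (-0.22, 0.268), SOX9 (-0.15, 0.332) and KLF5 (-0.14, 0.34). Further probe sets were lower for SOX9 (-0.31) and KLF5 (-0.20) and mixed for FOXA2 (-0.11 and 0.06) and EHF (-0.31 to 0.02), and that of GATA6 differed by -0.01. The intestinal factor CDX2 was the 1 that was higher (0.23, limma adjusted p = 0.386; second probe set 0.28, under the filter). All but FOXA2 and EHF were named after their values were seen. Among proteases, adaptors and partners of membrane mucins (20 measured, all above the filter, median -0.05), 2 were lower and 0 higher at that level, where 7.91% and 3.72% of all genes were. They were the receptor ERBB3 (-0.41, limma adjusted p = 0.17, further probe sets from -0.28 to 0.14) and ADAM17, a protease that sheds MUC1 (-0.20, 0.371, further probe sets -0.17 and 0.02). The lists were not matched for level. Among the 4738 probe sets within 0.5 of the mean level of MUC1 211695_x_at (9.43), the median difference was -0.04. Near MUC2 204673_at (7.45) it was 0.01. Median untreated levels were 9.31 for O-glycosylation, 9.89 for transcription factors and 10.38 for this last list. They were 7.48 for companions and 6.70 for other mucins. The part of level in the list values was not tested.

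**Figure D3:**
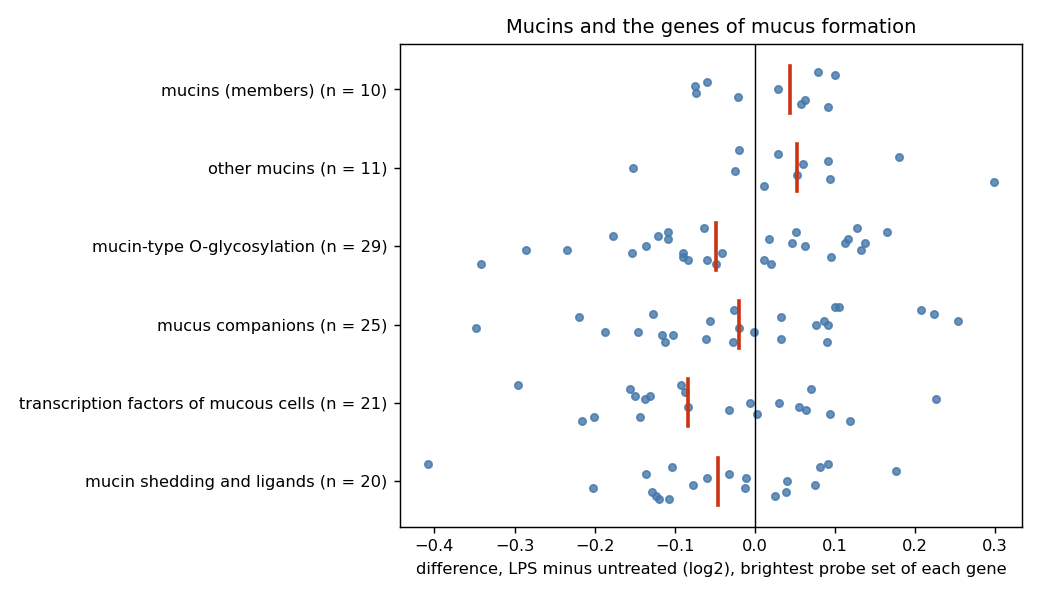
Difference between LPS and untreated cells (log2, x axis) for the 10 mucins and the measured genes of 5 lists, each point a gene by its brightest probe set and each red bar the median of its row. The mucins lie between -0.07 and 0.10 with a median of 0.04, and no point in any row passed the limma threshold.

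The arrays were alike as a whole, with medians of 7.00 to 7.03 and correlations of 0.996 to 0.998 between arrays across probe sets. Epithelial markers (11 measured) had a median level of 13.15 and all exceeded the olfactory 95 percentile, while leukocyte markers (10 measured) had a median of 7.00 and fibroblast and endothelial markers (12 measured) one of 7.25. Of these, 3 in each list exceeded it too, LYZ (12.74), CD53 (8.39) and CD3E (7.90) in the first and COL1A1 (9.12), THY1 (8.22) and PECAM1 (7.89) in the second. CD53 differed by 0.33 with LPS (limma adjusted p = 0.353) and LYZ by -0.15 (limma adjusted p = 0.332). The leukocyte list as a whole had a median difference of 0.0034. The part of these markers in the values above was not tested. Poly-A spike-ins, bacterial transcripts added before labelling, were lower on the LPS arrays (mean difference -0.48), with 24 of 24 probe sets below on both LPS arrays. The 3′ minus 5′ signal of beta-actin, a measure of RNA integrity and labelling, was 0.64 and 0.86 on the untreated and 0.39 and 0.63 on the LPS arrays. For GAPDH it was 0.02 and 0.07 on the untreated and 0.001 and 0.11 on the LPS arrays, so those groups overlapped. The part of the spike-in and 3′ to 5′ differences in the values above was not tested.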

How the data were processed

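RNA of 4 MKN45 samples was measured on one-colour Affymetrix arrays. The deposited values were log2 levels, as judged from the values. The submitters' processing notes name MAS5 and RMA, and it is not given in the sources used here which one made these values. The distributions were nearly equal between arrays, which would hide a shift of all transcripts. Of 54675 probe sets, 62 controls were left out. Names came from the platform annotation. Probe sets with a mean under the 30 percentile were left out of the main test, and those mucins take their values from a fit with no filter. Groups were compared with limma 3.58.1 in R 4.3.3 (lmFit, eBayes with trend, no replicate block, 7.06 degrees of freedom, two-sided, Benjamini-Hochberg over all probe sets tested, threshold 0.05). The procedure was also run on simulated data with known changes. How often it calls differences as small as those of the mucins is not given here. Intervals are 95%.

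Members and lists were chosen with earlier results of these data known. All mucins were named, and per list the 2 genes with the smallest p, since fewer than 2 passed. Other names are marked as chosen later. Alternatives were other filters (none, 50 percentile), quantile normalization, median centring, cyclic loess, no trend, a replicate block, an adjusted p under 0.1, each array left out, probe sets without _x_at and _s_at, and averaging all probe sets of a gene. With 1 array left out, the lone array was assumed to vary like the other group.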

Additional observations from a re-analysis of the deposited data

How the results depend on the processing

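The count of mucin probe sets called was 0 under every alternative run, with the smallest limma adjusted p of any mucin at 0.15 (MUC1 207847_s_at, replicate block). The count over the whole array, 3, became 5 with a filter at the 50 percentile, 8 after quantile normalization or cyclic loess (4 higher and 4 lower each), 17 after median centring (6 higher, 11 lower), 9 at an adjusted p under 0.1 and 2 to 11 with 1 array left out, 11 being without untreated replicate 1. The median over the mucin probe sets, 0.03, was 0.0655 with the 50 percentile filter, -0.0027 without _x_at and _s_at probe sets and 0.00034 to 0.0287 with 1 array left out, lowest without untreated replicate 1. The cause of these moves was not tested. Of 253 values of single mucin probe sets under alternatives, 20 turned sign, and none of them had been called. Many of the 253 could not turn, since a change of filter, trend, replicate block or threshold leaves each difference as it was. Only rescaling the arrays or leaving 1 out could turn a sign. With all probe sets of a gene averaged in place of the brightest, MUC5AC turned from 0.08 to -0.03 and MUC6 from 0.03 to -0.03, while MUC1 moved from 0.09 to 0.18, MUC5B from 0.06 to 0.02, MUC17 from 0.10 to 0.05, MUC4 from -0.06 to -0.00035, MUC13 from -0.07 to -0.0046, MUC20 from -0.07 to -0.02 and MUC12 from -0.02 to -0.0026.

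The replicate numbers were used as a block only here, since the labels do not say that a number marks a shared experiment. Deviations of same-numbered arrays from their group means correlated at r = 0.21 across 38229 probe sets. The replicate block gave 3 calls over the array and 0 mucins. It cannot change the differences in this balanced design, so the mucin median of 0.03 stays by construction. At an unadjusted limma p under 0.05 it had 2 mucin probe sets higher, MUC1 207847_s_at (interval 0.12 to 0.34) and 211695_x_at (0.05 to 0.39). MUC5AC 217182_at was the 1 that was lower (-0.38 to -0.02). Over the 38229 probe sets, 1844 were higher and 3915 lower at that level. List medians shrank under cyclic loess, from -0.05 to -0.0056 for shedding and ligands, -0.05 to -0.02 for O-glycosylation, -0.08 to -0.05 for transcription factors, -0.02 to -0.01 for companions and 0.05 to 0.04 for other mucins, and none turned sign there, after quantile normalization (shedding and ligands -0.01) or after median centring.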
